A study of Mus musculus with 36 samples.

Results

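The data describe 10 genes of the bone morphogenetic protein (BMP) response in fetal mouse germ cells, namely the type I receptor gene *Bmpr1a*, the target genes *Id1*, *Id2*, *Id3*, *Msx1*, *Msx2*, *Gata2* and *Zglp1*, and the inhibitory SMAD genes *Smad6* and *Smad7*. They were chosen by gene symbol, with their level (TPM, a transcript abundance normalized for length and depth) by stage and in intrauterine hyperglycemia (IUHG) versus control already known from these libraries. Their stage, sex and IUHG values are therefore given as a description without a test. All 10 were found, among 57126 genes in the tables of primordial germ cells (PGCs) and 56262 in those of whole gonads.

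BMP ligands bind a pair of type I and type II receptors, and the type I receptor phosphorylates SMAD1, SMAD5 or SMAD9, which enter the nucleus with SMAD4 and switch on target genes. ID proteins are targets that bind and block basic helix-loop-helix factors, MSX1 and MSX2 are homeobox factors, and GATA2 and ZGLP1 carry GATA-type zinc fingers. In the fetal ovary, BMP signaling with retinoic acid directs PGCs into the oogenic fate, ZGLP1 acts downstream of BMP in that step, and SMAD6 and SMAD7 restrain the pathway.

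The study compared offspring of dams made diabetic with streptozotocin (STZ) against offspring of control dams, in 12 groups of 3 libraries. Dams of the IUHG groups received 120 mg/kg STZ at day 3.5 of pregnancy and entered the study when blood glucose exceeded 14 mM at day 6.5. The PGC groups were control and IUHG at E12.5 (sex given as not determined in the labels), E13.5 female (E13.5F), E13.5 male (E13.5M), E16.5 female (E16.5F) and E16.5 male (E16.5M), and the gonad groups were control and IUHG E13.5 female gonads. PGCs were sorted as EGFP-positive cells of gonads carrying an *Oct4-EGFP* transgene, while gonads were taken whole. The labels call the genotype WT in every group and do not say what the control dams received, and per the methods each PGC library pooled many fetuses. In whole tissue, fewer cells of a type and less RNA per cell cannot be told apart.

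The PGC libraries held 3.25 to 8.32 aligned gigabases and the gonad libraries 3.89 to 4.95. The germ cell markers (*Ddx4*, *Dazl*, *Pou5f1*, *Dppa3*, *Dppa5a* and *Kit*) had a summed mean level between 1510 and 12900 TPM in the PGC groups and between 561 and 825 TPM in gonads. Single markers did not all follow their sum, and *Pou5f1* was 3.05 to 13.6 TPM in the E16.5F PGC libraries. Its 59.2 to 152 TPM in gonads belongs to an earlier stage (E13.5F) and to separately normalized tables. The Y-linked list summed to at most 0.601 TPM in the female PGC libraries. Its mean went from 205 TPM in control to 144 TPM in IUHG PGCs at E12.5, and from 167 to 118 TPM at E13.5M. Replicate 1 of the control gonads carried Y-linked transcripts (51.3 TPM in sum, against 0 in the 3 IUHG gonads) and Sertoli markers at 263 TPM. Replicate 3 of the IUHG E13.5F PGCs had the lowest mean correlation with its own group (r = 0.92).

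The promoter windows of the members are shown first, as a description of the genes. RefSeq windows of GRCm38.p6, from 250 bases before to 50 bases after the annotated start, were listed for 8 members in 9 windows, with none listed for *Id1* and *Smad7*. They were searched for GGCGCC, a palindromic GC-rich motif to which BMP-activated SMADs bind, and for GTCT, the short SMAD-binding element, on both strands. GGCGCC was present in 4 of the 9 windows (*Zglp1*, *Id2*, *Bmpr1a* and the second window of *Gata2*) and in 11.9% of all 32851 windows. GTCT was present in 8 of the 9 windows and in 88.0% of all windows. The members' windows averaged 67.6% GC against 53.8% over all windows, and a GC-rich motif is met more often in GC-rich sequence. The 3 target genes whose window held GGCGCC are printed 5′ to 3′ on the gene's strand, with that motif in capitals. They lie at chr9:21067044-21067343 on the minus strand for *Zglp1*, chr12:25096043-25096342 on the minus strand for *Id2*, and chr6:88198414-88198713 on the plus strand for the second *Gata2* start.
Zglp1: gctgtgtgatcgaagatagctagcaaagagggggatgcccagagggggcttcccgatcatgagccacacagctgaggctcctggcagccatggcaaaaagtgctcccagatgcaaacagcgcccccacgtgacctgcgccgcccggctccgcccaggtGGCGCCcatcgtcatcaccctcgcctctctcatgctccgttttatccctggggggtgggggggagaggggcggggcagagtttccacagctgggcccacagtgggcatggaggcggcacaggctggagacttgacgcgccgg
Id2: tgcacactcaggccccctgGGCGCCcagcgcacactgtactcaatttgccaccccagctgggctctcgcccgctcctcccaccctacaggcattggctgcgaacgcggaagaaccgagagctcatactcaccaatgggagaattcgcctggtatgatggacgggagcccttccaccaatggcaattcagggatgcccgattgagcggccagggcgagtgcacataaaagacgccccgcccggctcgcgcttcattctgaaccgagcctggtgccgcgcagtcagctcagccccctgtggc
Gata2, second start: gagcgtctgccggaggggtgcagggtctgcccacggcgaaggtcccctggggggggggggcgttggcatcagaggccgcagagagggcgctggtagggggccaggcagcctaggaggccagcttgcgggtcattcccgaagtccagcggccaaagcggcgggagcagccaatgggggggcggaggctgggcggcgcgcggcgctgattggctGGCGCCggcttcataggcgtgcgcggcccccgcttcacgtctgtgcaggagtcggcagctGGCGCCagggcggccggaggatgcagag
The *Gata2* window held the motif at 2 places and the others at 1 place each. A match is a description of these letters and not of binding. The windows of *Id3*, *Msx1*, *Msx2*, *Smad6* and the first *Gata2* start held no GGCGCC, and of these only the *Msx1* window also held no GTCT.

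In control PGCs, most members were higher in females and lower in males at E13.5 than at E12.5. Between E12.5 and E13.5F, 9 of the 10 genes were higher with no overlap of the libraries, where 41.5% of all expressed genes were, and *Smad7* was lower (21.9% of all genes were). Between E12.5 and E13.5M, 9 of the 10 were lower with no overlap, where 34.9% of all genes were, and *Smad6* overlapped. Expressed genes here are those with a mean of at least 1 TPM in 1 of the groups compared.

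*Bmpr1a*, the receptor gene, stood at 18.4, 19.0 and 18.9 TPM in the control E12.5 libraries, at 39.8, 37.6 and 45.4 TPM at E13.5F, and at 9.66, 9.67 and 10.1 TPM at E13.5M. The 3 groups did not overlap, with the female level highest and the male level lowest. By E16.5 the means were 19.2 ± 2.05 TPM (SD, n = 3) in females and 5.24 ± 0.684 TPM in males.

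Among the ID genes, *Id1* had the widest range. Its control level was 61.0, 55.4 and 56.1 TPM at E12.5, 421, 506 and 463 TPM at E13.5F, and 1836, 1829 and 1738 TPM at E16.5F. In males it was 18.7, 18.1 and 19.5 TPM at E13.5 and 22.5, 27.5 and 23.1 TPM at E16.5. No neighbours in the order of these 5 groups overlapped, and *Id1* was the only member whose level was higher at E16.5F than at E13.5F without overlap (38.9% of all genes were).

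*Id3* was the most abundant ID gene at E12.5, at 304 ± 18.6 TPM. It reached 734 ± 49.2 TPM at E13.5F and stayed within the same range at E16.5F (747 ± 33.9 TPM). In males it was 152 ± 3.54 TPM at E13.5 and 15.7 ± 1.96 TPM at E16.5. *Id2* ran from 63.2 ± 4.89 TPM at E12.5 to 272 ± 38.2 TPM at E13.5F and 18.5 ± 4.95 TPM at E13.5M, and its 2 female stages overlapped (235 ± 24.0 TPM at E16.5F).

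The homeobox genes and *Gata2* peaked in E13.5F. *Gata2* stood at 29.5, 19.2 and 23.1 TPM in the control libraries at E12.5, at 169, 163 and 192 TPM at E13.5F, and at 1.96, 3.26 and 1.93 TPM at E13.5M. It was then 26.9 ± 1.99 TPM at E16.5F, overlapping E12.5, and 8.52 ± 1.49 TPM at E16.5M. *Msx1* was 16.2, 8.96 and 12.2 TPM in the E12.5 libraries, 111 ± 2.03 TPM at E13.5F and 3.24 ± 0.613 TPM at E13.5M, then 15.2 ± 1.71 TPM at E16.5F and 0.681 ± 0.355 TPM at E16.5M.

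*Msx2* had a different male course. It went from 1.58, 0.909 and 0.708 TPM at E13.5M to 17.0, 17.5 and 17.9 TPM at E16.5M, while in females it went from 54.6, 61.8 and 62.6 TPM to 11.3, 4.00 and 2.40 TPM. *Msx2*, *Gata2* and *Id1* were the members that were higher at E16.5M than at E13.5M without overlap, a pattern that 55.8% of all genes showed, and 5 members were lower without overlap, against 26.7% of all genes. The lowest *Msx2* values rested on a mean base coverage of 2.38 to 6.11 reads, so ratios to that group are imprecise.

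*Zglp1* spanned a narrow range beside these targets. Its control libraries were at 50.9, 52.4 and 60.1 TPM at E12.5, 97.6, 120 and 102 TPM at E13.5F, and 24.5, 29.8 and 16.6 TPM at E13.5M. At E16.5 they were at 28.4, 19.6 and 29.0 TPM in females and at 62.3, 16.1 and 37.2 TPM in males. Only E13.5F lay apart from the next group in order (E12.5), and all later neighbours overlapped.

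The inhibitory SMAD genes were low throughout. *Smad6* was 19.5 ± 4.21 TPM at E13.5F and between 4.46 and 8.46 TPM in the other control groups, which overlapped their neighbours. *Smad7* was highest at E12.5 (8.48 ± 1.29 TPM) and lowest at E16.5F (1.40 ± 0.260 TPM). From E13.5F to E16.5F, 7 members were lower without overlap, where 22.8% of all genes were.

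**Figure D1:**
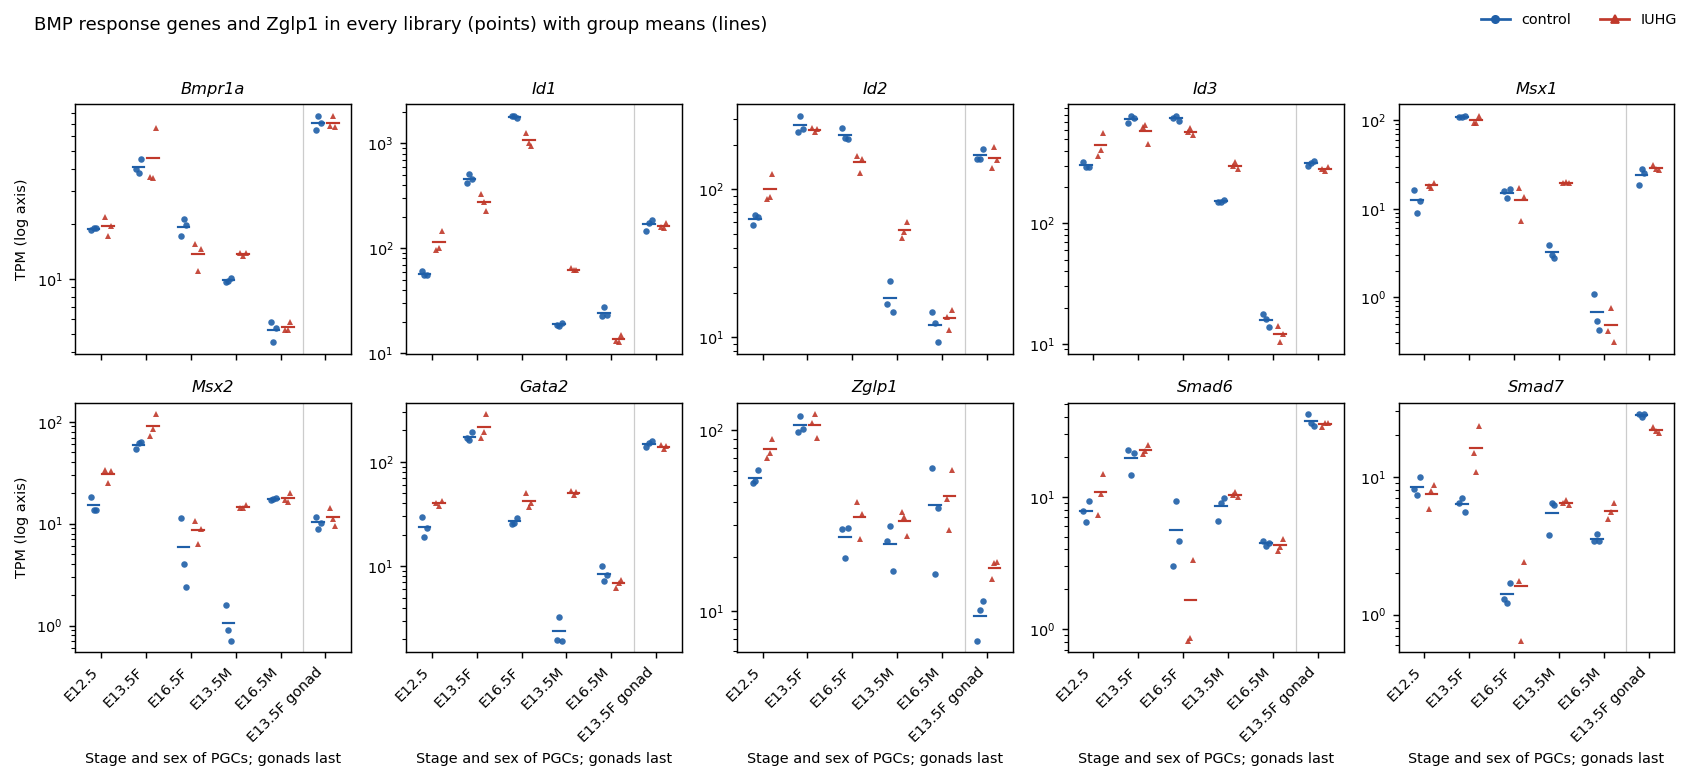
TPM on a log axis for each of the 10 genes in every library, with control libraries as circles, IUHG libraries as triangles and group means as short lines, for the 5 PGC stage and sex groups and, right of the grey line, the E13.5 female gonads, whose tables were normalized separately. *Gata2* is lowest in control E13.5M PGCs, and *Id1* climbs to 1801 TPM in control E16.5F PGCs.

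Female and male control PGCs are set side by side next, again as a description, since the levels in these groups were known when the genes were chosen. At E13.5, 9 of the 10 members were higher in females without overlap, where 45.1% of all genes were, and none was lower without overlap, where 24.8% of all genes were. Nothing is read from these counts. The median gene of this comparison was 0.28 higher in females on the log2 scale, and −0.03 after median-of-ratios scaling.

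The female excess at E13.5 was largest for *Gata2*, at 5.72 ± 0.19 (SE) on the log2(TPM + 1) scale. *Msx2* was higher by 4.90 ± 0.19, *Msx1* by 4.73 ± 0.12 and *Id1* by 4.55 ± 0.08, so these 4 targets differed most. *Id2* followed at 3.83 ± 0.23, *Id3* at 2.26 ± 0.06, *Zglp1* at 2.16 ± 0.25 and *Bmpr1a* at 1.95 ± 0.08. *Smad6* was higher by 1.11 ± 0.24. *Smad7* differed by 0.20 ± 0.22, with overlapping libraries.

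At E16.5 the members split, with 6 of 10 higher and 2 lower in females without overlap, where 34.7% and 40.2% of all genes were. *Id1* was higher by 6.16 ± 0.09, *Id3* by 5.49 ± 0.11, *Id2* by 4.18 ± 0.20, *Msx1* by 3.28 ± 0.19, *Bmpr1a* by 1.70 ± 0.13 and *Gata2* by 1.56 ± 0.14. *Msx2* and *Smad7* were lower in females, at −1.64 ± 0.55 and −0.93 ± 0.10. *Zglp1* differed by −0.39 ± 0.58 and *Smad6* by 0.17 ± 0.40, both with overlap.

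Male control PGCs also carried more Sertoli and Leydig transcripts and, at E16.5, more blood transcripts. The 4 Sertoli markers summed to 37.1 TPM in control E13.5M and 1.63 TPM in E13.5F PGCs, and to 98.1 and 6.87 TPM at E16.5. The 4 Leydig markers summed to 24.3 and 1.60 TPM at E13.5, and to 57.6 and 4.11 TPM at E16.5. The 5 blood markers summed to between 227 and 545 TPM in the male and between 5.05 and 38.4 TPM in the female libraries at E16.5, and 4 of them were lower in females without overlap. The part of these cells in the sex differences was not tested.

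**Figure D2:**
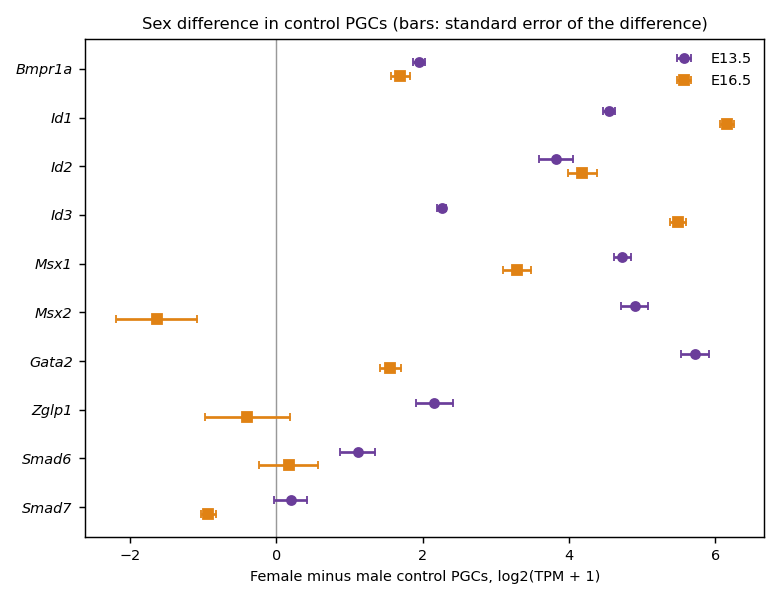
Female minus male difference of each gene in control PGCs on the log2(TPM + 1) scale at E13.5 (circles) and E16.5 (squares), with the standard error of the difference as bars and 3 libraries in each group. At E13.5 every gene except *Smad7* lies at 1.11 or more, and at E16.5 *Msx2* lies at −1.64 and *Id1* at 6.16.

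IUHG values were furthest from control in E13.5M PGCs. All 10 members had a higher mean in IUHG, 8 with no overlap of the libraries, where 21.8% of all genes were higher and 25.4% were lower without overlap. The median difference of the 10 was 1.23 on the log2(TPM + 1) scale, against −0.02 over all genes. Nothing is read from that count, since the choice of genes used this contrast.

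*Gata2* went from 1.96, 3.26 and 1.93 TPM in control to 52.7, 47.6 and 51.8 TPM in IUHG E13.5M PGCs. Every IUHG library was far above every control library, and the means differed 21.3-fold, or by 3.96 ± 0.18 (SE) on the log2(TPM + 1) scale. *Msx2* went from 1.58, 0.909 and 0.708 TPM to 14.2, 14.1 and 15.2 TPM, a difference of 2.93 ± 0.18. *Msx1* went from 3.93, 2.98 and 2.79 TPM to 19.6, 20.1 and 19.7 TPM, a difference of 2.31 ± 0.12. For these low genes the size depended on the scale, and *Msx2* differed by 3.72 with a pseudocount of 0.1 and by 2.45 on FPKM.

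The ID genes were higher by less. *Id1* went from 18.7, 18.1 and 19.5 TPM to 64.4, 62.5 and 61.5 TPM (1.69 ± 0.03 on the log2 scale). *Id2* went from 16.7, 24.1 and 14.7 TPM to 47.1, 51.7 and 59.8 TPM (1.49 ± 0.23), and *Id3* from 151, 150 and 156 TPM to 300.0, 322 and 281 TPM (0.98 ± 0.06). None of the 3 overlapped.

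The *Zglp1* libraries overlapped, at 24.5, 29.8 and 16.6 TPM in control and 35.4, 33.3 and 26.1 TPM in IUHG (0.43 ± 0.27). *Bmpr1a* went from 9.81 ± 0.241 to 13.6 ± 0.303 TPM and did not overlap. *Smad6* went from 8.46 ± 1.74 to 10.3 ± 0.438 TPM (0.28 ± 0.16). It was narrowly without overlap, with 9.85 TPM in the highest control and 9.92 TPM in the lowest IUHG library. *Smad7* went from 3.77, 6.44 and 6.27 TPM to 6.44, 6.77 and 6.27 TPM with overlap.

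The IUHG male levels were next set beside those of female and earlier germ cells. *Gata2* in IUHG E13.5M PGCs was 29.1% of the control E13.5F mean, against 1.37% in control males. The same pair of shares was 24.3% and 1.79% for *Msx2*, 17.9% and 2.93% for *Msx1*, and 13.6% and 4.06% for *Id1*. The share in IUHG males was 19.5% for *Id2*, 29.7% for *Zglp1*, 33.3% for *Bmpr1a*, 41.0% for *Id3* and 53.0% for *Smad6*. *Smad7* was at 103%, and at 87.0% in control males. Against control E12.5 PGCs, IUHG E13.5M libraries were above for 4 members (*Id1*, *Msx1*, *Gata2* and *Smad6*), overlapping for *Id2*, *Id3* and *Msx2*, and below for *Zglp1*, *Smad7* and *Bmpr1a*. Over all genes 26.5% were above and 34.5% below. The gap was narrow for *Id1* (lowest IUHG library 61.5, highest E12.5 control library 61.0 TPM) and *Smad6* (9.92 and 9.25 TPM).

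Other values moved with this contrast. The Y-linked *Eif2s3y* was 140, 171 and 156 TPM in control and 109, 110 and 106 TPM in IUHG E13.5M PGCs, and was listed at 0 in every E13.5F library. It made up most of the Y-linked sum. Of the 4 Y-linked genes, 2 (*Eif2s3y* and *Uty*) were lower in IUHG without overlap. *Kdm5d* overlapped, as did *Ddx3y*, at 4.32, 4.74 and 4.80 TPM in control and 4.57, 4.50 and 4.61 TPM in IUHG. The 4 Leydig markers summed to between 21.0 and 26.6 TPM in the control and between 0.857 and 3.89 TPM in the IUHG libraries, and the 4 Sertoli markers to between 33.7 and 40.7 TPM and between 26.6 and 33.5 TPM. Of the 5 endothelial markers, *Cdh5*, *Kdr*, *Tek* and *Emcn* each stayed under a mean of 1 TPM in both groups. The fifth, *Pecam1*, was higher in IUHG without overlap, at 46.2, 50.3 and 52.1 TPM in control and 73.0, 76.1 and 83.4 TPM in IUHG. The part of the sexing of fetuses or of other cells in these differences was not tested.

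E12.5 PGCs showed the same direction at a smaller size, with 7 of the 10 members higher in IUHG without overlap and none lower without overlap, where 13.3% and 9.12% of all genes were. The median difference was 0.54, against 0.04 over all genes. *Id1* went from 61.0, 55.4 and 56.1 TPM to 96.9, 102 and 146 TPM (0.96 ± 0.19), and *Msx2* from 18.3, 13.6 and 13.6 TPM to 33.9, 25.3 and 32.9 TPM (0.97 ± 0.19). Both groups were apart for these 2 genes, and IUHG replicate 3 was the highest for *Id1*.

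*Gata2* was 29.5, 19.2 and 23.1 TPM in control and 40.8, 38.0 and 42.0 TPM in IUHG E12.5 PGCs (0.75 ± 0.18). *Zglp1* was 50.9, 52.4 and 60.1 TPM in control and 70.8, 75.1 and 90.0 TPM in IUHG (0.52 ± 0.13), and it lay apart in this comparison. *Id2*, *Id3* and *Msx1* were higher by 0.64, 0.52 and 0.56. *Smad6*, *Smad7* and *Bmpr1a* overlapped, at 0.39 ± 0.30, −0.17 ± 0.19 and 0.04 ± 0.10. The labels give no sex for these libraries, and the Y-linked sum was 205 TPM in control and 144 TPM in IUHG, with 2 of the 4 genes lower without overlap. The 4 Sertoli markers, all lower in IUHG without overlap, summed to 5.77 TPM in control and 0.969 TPM in IUHG. The 6 interstitial markers, all lower in IUHG and 3 of them without overlap, summed to 6.64 and 0.869 TPM. The part of sex and of other cells in these differences was not tested.

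In E13.5F PGCs the members did not share a direction. *Id1* and *Id3* were lower in IUHG without overlap (13.2% of all genes were) and *Msx2* and *Smad7* higher without overlap (19.8% were). *Id1* went from 421, 506 and 463 TPM to 330, 278 and 229 TPM (−0.74 ± 0.17), and the difference was −0.605 without IUHG replicate 3, its lowest library. *Smad7* went from 6.44, 6.97 and 5.53 TPM to 14.8, 10.8 and 23.2 TPM (1.18 ± 0.31), and by 0.90 without IUHG replicate 3, its highest library.

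*Msx2* was 54.6, 61.8 and 62.6 TPM in control and 72.6, 84.3 and 119 TPM in IUHG (0.59 ± 0.22), or 0.39 without IUHG replicate 3. *Id3* was 734 ± 49.2 TPM in control and 579 ± 110 TPM in IUHG (−0.36 ± 0.18), or −0.19 without that replicate. *Zglp1* was close in both groups, at 97.6, 120 and 102 TPM in control and 110, 123 and 90.3 TPM in IUHG (0.01 ± 0.16). *Gata2* overlapped at 169, 163 and 192 against 168, 193 and 286 TPM (0.27 ± 0.24), or 0.05 without IUHG replicate 3. The differences for *Id2*, *Msx1*, *Smad6* and *Bmpr1a* were −0.10, −0.15, 0.22 and 0.10, with overlap. Without IUHG replicate 3 they were −0.11, −0.24, 0.17 and −0.19, so the sign for *Bmpr1a* rested on that library, and *Zglp1* differed by 0.13. That replicate also had the highest level of *Pecam1*, which was 67.8, 50.4 and 69.1 TPM in control and 88.4, 126 and 208 TPM in IUHG. *Pecam1* is listed as an endothelial marker, but the other 4 endothelial markers stayed under a mean of 1 TPM in both groups. It was also 132, 129 and 122 TPM in control E12.5 PGCs, against 71.9, 75.7 and 72.7 TPM in control gonads. The part of other cells was not tested.

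The median difference of the 10 was 0.06 here, where the median gene was 0.14 higher in IUHG on TPM and −0.01 on median-of-ratios scaling. Under the latter the members' median was −0.10, so small differences of either sign depend on the scaling.

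At E16.5F the ID genes were lower in IUHG. *Id1* went from 1836, 1829 and 1738 TPM to 1247, 1019 and 940 TPM (−0.76 ± 0.12), *Id2* from 263, 222 and 220 TPM to 169, 129 and 161 TPM (−0.62 ± 0.14), and *Id3* from 745, 782 and 714 TPM to 571, 618 and 539 TPM (−0.38 ± 0.07). None overlapped. *Bmpr1a* was lower too, at 19.2 ± 2.05 and 13.7 ± 2.28 TPM (−0.47 ± 0.16).

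*Gata2* was the 1 member that was higher without overlap, at 25.5, 26.0 and 29.2 TPM in control and 49.8, 36.9 and 40.1 TPM in IUHG (0.63 ± 0.14). A total of 4 members were lower without overlap, where 14.1% of all genes were, and 14.9% of all genes were higher. *Smad6* had the largest mean difference but overlapped, at 3.01, 9.30 and 4.61 TPM in control and 0.816, 0.851 and 3.31 TPM in IUHG (−1.33 ± 0.57). *Zglp1* was 25.7 ± 5.28 and 33.4 ± 7.74 TPM, and *Msx1*, *Msx2* and *Smad7* overlapped as well.

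Single germ cell markers moved in both directions at this stage, while their sum was 1990 TPM in control and 1930 TPM in IUHG. Of the 6, 4 were lower in IUHG (3 without overlap) and 2 higher (1 without overlap). *Ddx4* was higher without overlap, at 368, 360 and 362 TPM in control and 417, 374 and 423 TPM in IUHG. *Dazl* was higher on average with overlap. *Dppa3* fell from 253, 227 and 184 TPM to 14.5, 2.53 and 9.81 TPM (adjusted p = 0.0011, limma) and *Kit* from 48.1, 53.2 and 45.1 TPM to 19.2, 7.91 and 14.3 TPM (adjusted p = 0.0084, limma), the 2 of 6 germ cell markers with a log2 difference beyond 1 and an adjusted p under 0.01 over all genes. Whole gonads were sampled only at E13.5F, an earlier stage, and were normalized separately. Their levels (*Dppa3* 68.8 to 195 TPM, *Kit* 29.1 to 59.7 TPM) are therefore no reference for E16.5F PGCs. In control E13.5F PGCs *Dppa3* was 1850, 2229 and 1889 TPM. Interstitial markers summed to 48.8 TPM in control and 112 TPM in IUHG PGCs, and blood markers to between 5.05 and 38.4 TPM and between 8.06 and 292 TPM. Their part in the members' values was not tested.

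At E16.5M only *Id1* was lower and only *Smad7* higher without overlap, where 12.0% and 17.8% of all genes were. *Id1* went from 22.5, 27.5 and 23.1 TPM to 13.0, 12.7 and 15.1 TPM (−0.79 ± 0.11). *Smad7* went from 3.43, 3.83 and 3.40 TPM to 4.90, 5.53 and 6.47 TPM (0.54 ± 0.11). *Zglp1* overlapped widely, with control libraries from 16.1 to 62.3 TPM and IUHG libraries from 28.3 to 60.6 TPM. *Msx1* stayed under 1 TPM on average in both groups. The Leydig markers summed to 57.6 TPM in control and 17.2 TPM in IUHG, the blood markers to 350 and 130 TPM, the Y-linked genes to 86.3 and 118 TPM, and the 4 Sertoli markers, all lower in IUHG without overlap, to 98.1 and 71.5 TPM. Their part in these differences was not tested.

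**Figure D3:**
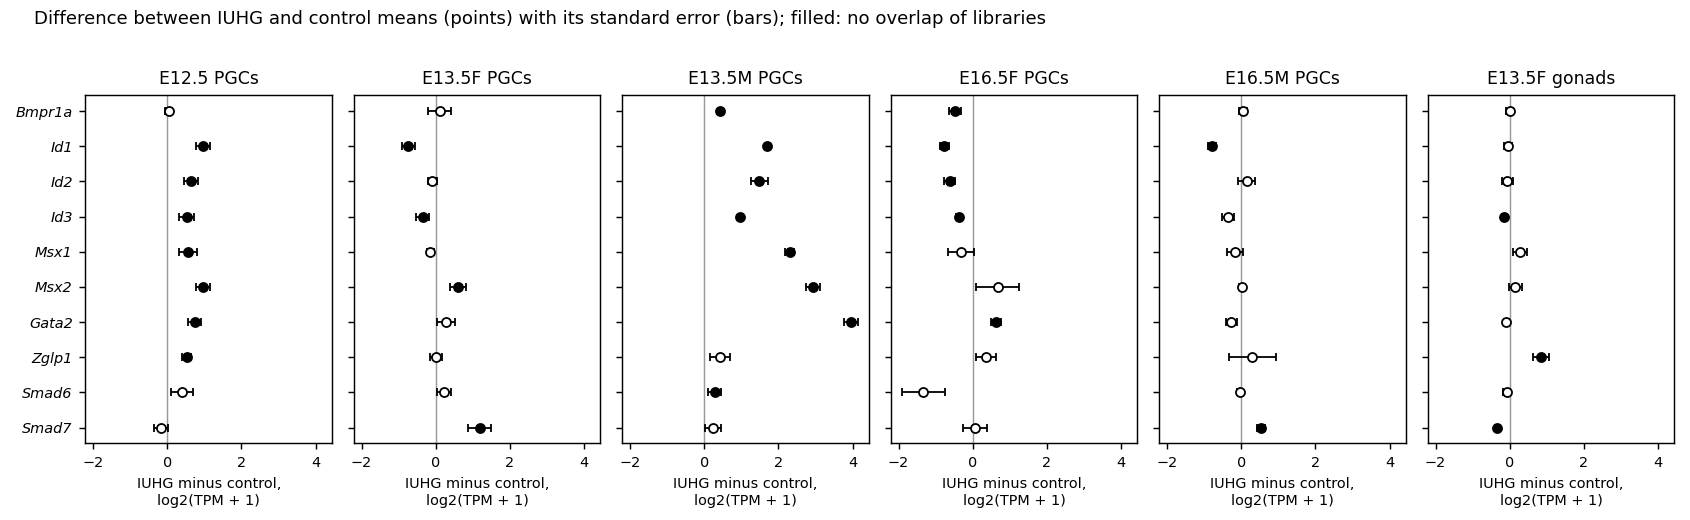
Mean IUHG minus control difference on the log2(TPM + 1) scale for each gene, with its standard error as a bar, in the 5 PGC comparisons and the gonads (3 libraries in each group). Filled points mark genes whose control and IUHG libraries did not overlap, which were 8 of 10 in E13.5M PGCs, where *Gata2* reached 3.96.

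Whole E13.5F gonads showed few differences. Their tables were normalized apart from those of PGCs, so levels are only set side by side. *Smad6*, *Smad7* and *Bmpr1a* were at 37.6, 27.9 and 71.1 TPM in control gonads, against 19.5, 6.32 and 40.9 TPM in control E13.5F PGCs. *Zglp1* was at 9.45 TPM in gonads and 107 TPM in PGCs, and *Msx1* and *Msx2* were also lower in gonads (24.1 and 10.3 TPM).

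Under IUHG, *Zglp1* was 6.86, 10.1 and 11.4 TPM in control and 15.1, 18.5 and 18.6 TPM in IUHG gonads, with no overlap (0.84 ± 0.22, or 0.65 without control replicate 1, the library with Y-linked transcripts). It was the 1 member higher without overlap (14.5% of all genes were). The germ cell markers summed to 561 TPM in control and 825 TPM in IUHG gonads, and the part of germ cell content in the *Zglp1* value was not tested. *Smad7* was 28.4, 27.0 and 28.3 TPM in control and 22.9, 21.3 and 20.8 TPM in IUHG (−0.35 ± 0.05, or −0.34 without control replicate 1), and *Id3* 315 ± 15.3 and 281 ± 10.1 TPM (−0.16 ± 0.05, or −0.20 without that replicate). These 2 members were lower without overlap, where 11.3% of all genes were. The interstitial markers summed to 3100 TPM in control and 2290 TPM in IUHG gonads, with 5 of 6 lower without overlap, and the blood markers to 12900 and 7990 TPM, with 4 of 5 lower without overlap. The part of these cells was not tested.

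The rest of the pathway was read from 52 further genes in 6 lists. Calls across all genes were made by limma on log2(TPM + 1), at a Benjamini-Hochberg adjusted p under 0.01 and a log2 difference beyond 1 in PGCs, and at an adjusted p under 0.05 and a log2 difference of at least 1 in gonads. For genes that are not members, the value after ± on a log2 difference is the standard error of the limma fit. For members it is the plain standard error from the 2 groups, so these values are not comparable between members and other genes. Under IUHG, of the genes tested in each comparison, none was called in gonads (45 tested), E12.5 (28), E13.5F (36) or E16.5F PGCs (38), where 0.612%, 0.247%, 0.514% and 0.736% of all genes were. An unadjusted p under 0.05 was reached by 7, 5, 13 and 7 of them, against 19.9%, 15.7%, 23.4% and 22.8% of all genes. In E13.5M PGCs 2 of 31 rose, where 3.92% of all genes were called in either direction. In E16.5M PGCs 1 of 43 fell, where 0.201% of all genes were called. The median difference of the 52, with those too low to be tested included, was −0.03 in E13.5M PGCs and 0.02 in E12.5 PGCs. A pseudocount of 1 understates the differences of such low genes. The members, with medians of 1.23 and 0.54, were chosen on this contrast, so nothing is read from the gap between these medians.

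Both genes that rose in E13.5M were further BMP response genes. Of the 6 genes in that list, 3 lay higher and 2 lower without overlap, where 21.8% and 25.4% of all genes were. *Hand1*, a basic helix-loop-helix factor, was listed at 0 in the 3 control libraries and at 2.98, 3.81 and 4.13 TPM in IUHG (adjusted p = 1.6e-05, limma). *Gata3*, a GATA factor, went from 0.332, 0.416 and 0.169 TPM to 2.18, 2.50 and 1.97 TPM (1.30 ± 0.17, adjusted p = 0.00039, limma). *Hand1* and *Gata3* passed the filter of 1 TPM only through the IUHG group, where they were high. A gene this low in control could be called only as a rise. Nothing is therefore read from these p-values, from the number of genes that rose or from the list they belong to. *Id4*, a further ID gene, went the other way, from 17.9, 16.4 and 16.1 TPM to 11.0, 10.3 and 11.8 TPM, under the size threshold (−0.56 ± 0.09, adjusted p = 0.0013, limma). *Atoh8*, a basic helix-loop-helix factor, was 0.879, 0.882 and 0.902 TPM in control and 0.383, 0.678 and 0.156 TPM in IUHG, too low to be tested. In E16.5M PGCs *Atoh8* fell from 8.46, 14.1 and 11.1 TPM to 3.32, 3.17 and 4.42 TPM (−1.38 ± 0.20, adjusted p = 0.0096, limma), a call that was lost when any 1 of the 6 libraries was left out.

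Of the ligand genes, *Bmp4* was 26.8, 25.7 and 29.0 TPM in control and 15.4, 18.1 and 16.4 TPM in IUHG E13.5M PGCs, a difference of −0.68 that was under the size threshold (adjusted p = 0.00037, limma). At E12.5 it was 13.3 ± 0.497 TPM in control and 6.80 ± 1.31 TPM in IUHG (−0.88, adjusted p = 0.035, limma). *Bmp2*, the ligand made by the somatic cells of the fetal ovary, was under 1 TPM on average in E12.5 and E13.5M PGCs, 4.83 ± 0.506 TPM in control and 2.61 ± 0.355 TPM in IUHG E13.5F PGCs without overlap (−0.69 ± 0.29, adjusted p = 0.20, limma), and had a median of 16.4 TPM (highest 19.4) in control and 20.9 TPM (lowest 19.7) in IUHG gonads (adjusted p = 0.20, limma). *Bmpr2*, the type II receptor gene, was 19.7 ± 1.33 TPM in control gonads and at most 3.82 TPM on average in the PGC groups.

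Of the SMADs that carry the signal, *Smad1*, *Smad5* and *Smad4* were present in all PGC groups. *Smad9* was near 0 in some, at 0, 0.364 and 0.0593 TPM in control E12.5 PGCs and 0.0803, 0.162 and 0.0370 TPM in control E13.5M PGCs. It was 2.77, 3.05 and 3.18 TPM in control E16.5M PGCs. *Smad1* was 17.4 ± 0.224 TPM in control and 16.2 ± 0.262 TPM in IUHG E13.5M PGCs (adjusted p = 0.33, limma), and *Smad5* was 6.75 ± 0.176 and 7.39 ± 0.360 TPM (adjusted p = 0.41, limma). At E16.5F *Smad1* was lower in IUHG without overlap, at 8.20, 14.8 and 15.3 against 7.69, 2.61 and 4.09 TPM. *Smad5* was higher there without overlap, at 20.9, 20.0 and 22.3 against 25.3, 26.3 and 24.0 TPM. Neither was called, and 14.1% of all genes were lower and 14.9% higher without overlap. Between the sexes, *Smad5* was higher in control females than males by 1.15 ± 0.13 at E13.5 (adjusted p = 5.9e-05, limma) and by 2.56 ± 0.18 at E16.5 (adjusted p = 1.0e-05, limma). *Bmp4* went the other way, at −2.34 ± 0.14 at E13.5 (adjusted p = 1.6e-06, limma) and −1.37 ± 0.25 at E16.5 (adjusted p = 0.0017, limma). Of the 52 genes, 13 were higher and 7 lower in females at E13.5 (38 tested), where 20.4% and 9.35% of all genes were called, and 7 were higher and 12 lower at E16.5 (44 tested), where 22.9% and 28.0% of all genes were. At E13.5 *Hand1* was among the higher ones, at 10.3, 5.75 and 6.00 TPM in control females and listed at 0 in the control males (adjusted p = 5.7e-06, limma), as was *Gata3*, by 2.87 ± 0.18 (adjusted p = 2.1e-06, limma). Both passed the filter on low values only through the females, so nothing is read from these p-values. At E16.5 *Id4* and *Tob1*, a gene of a SMAD-binding antiproliferative protein, were among the higher ones, by 2.90 ± 0.15 and 3.65 ± 0.21 (adjusted p = 2.4e-06 and 3.1e-06, limma).

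**Figure D4:**
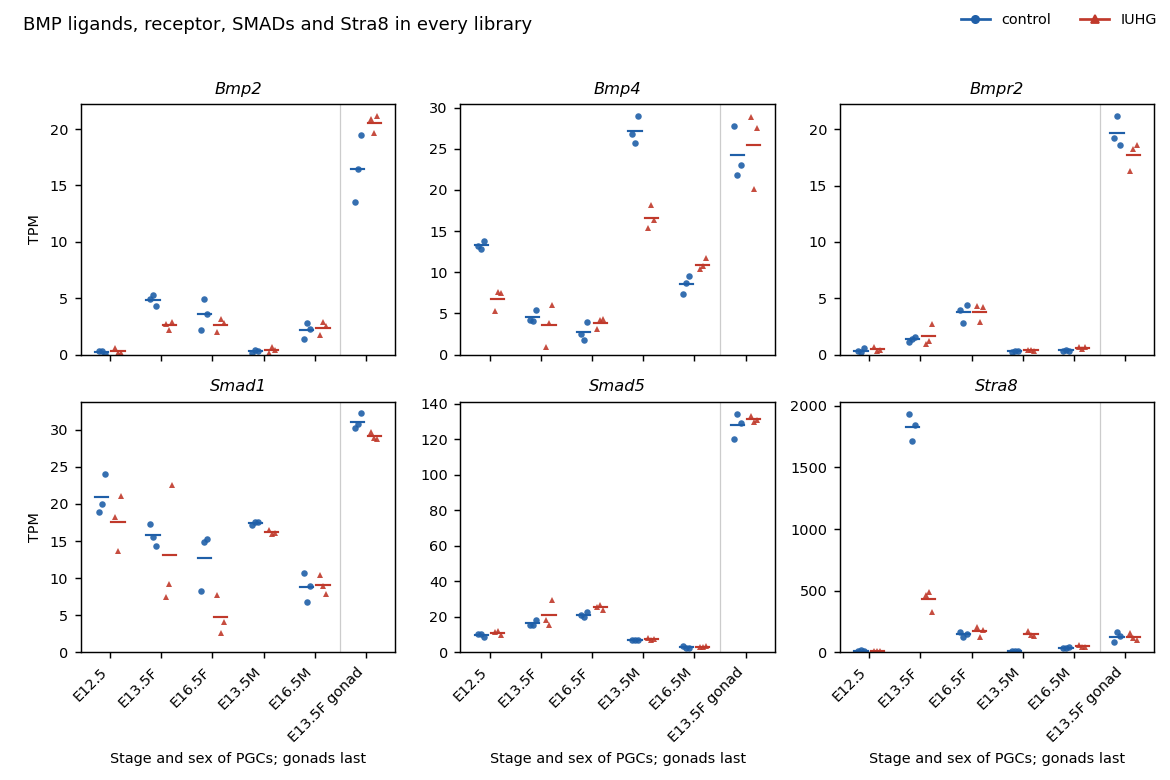
TPM of the ligand genes *Bmp2* and *Bmp4*, the type II receptor gene *Bmpr2*, *Smad1*, *Smad5* and the meiotic gene *Stra8* in every control (circles) and IUHG (triangles) library, with group means as short lines and the separately normalized gonads right of the grey line. *Stra8* stands at 1832 TPM in control and 428 TPM in IUHG E13.5F PGCs.

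*Stra8*, the retinoic acid target that starts meiotic entry, went down in IUHG females and up in IUHG males. In E13.5F PGCs it fell from 1832 ± 109 to 428 ± 88.9 TPM (−2.12 ± 0.19, adjusted p = 0.0011, limma), and the difference was −1.93 without IUHG replicate 3 (adjusted p = 1.1e-05, limma). The members were mixed in these libraries. *Id1* (−0.74) and *Id3* (−0.36) were lower and *Msx2* (0.59) and *Smad7* (1.18) higher without overlap, while *Zglp1* (0.01), *Gata2* (0.27) and the rest overlapped. *Meiosin*, the partner of STRA8, fell from 196 ± 25.3 to 26.9 ± 9.24 TPM (−2.87 ± 0.26, adjusted p = 0.0012, limma) and the axial element gene *Sycp3* fell by 2.10 on the log2 scale (adjusted p = 0.00046, limma). Both were also called without that replicate. *Rec8*, a meiotic cohesin gene, was 87.9 and 64.3 TPM (adjusted p = 0.19, limma). In E13.5M PGCs *Stra8* rose from 8.73, 13.0 and 11.7 TPM to 175, 138 and 134 TPM (3.63 ± 0.14, adjusted p = 2.7e-07, limma), which was 8.12% of the control E13.5F mean. *Meiosin* rose by 1.26 and *Rec8* by 1.76 (adjusted p = 0.00011 and 2.6e-06, limma). *Sycp3* was 121 TPM in control and 107 TPM in IUHG. Between the sexes in control PGCs at E13.5, all 4 of these genes were higher in females, *Stra8* by 7.25 ± 0.13 (adjusted p = 4.2e-09, limma).

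Across the 10 PGC group means of log2(TPM + 1), likeness between members varied, and they did not form separate pairs. Pearson's r was 0.98 for *Msx1* with *Bmpr1a*, 0.92 for *Msx1* with *Gata2*, 0.91 for *Msx2* with *Zglp1*, 0.91 for *Id1* with *Id2* and 0.90 for *Id2* with *Id3*. It was −0.41 for *Id1* with *Smad7* and 0.18 for *Id1* with *Zglp1*. *Id2* was as like *Bmpr1a* and *Msx1* (r = 0.90 for both) as *Id3*, and r was 0.86 for *Gata2* with *Bmpr1a*. The gene most like each member was not itself a member. Among 25142 genes, the 3 most like *Gata2* were *Prom1*, *Denr* and *Zrsr2* (r = 0.93, 0.93 and 0.92), and those most like *Zglp1* were *Gm20939*, *Hpf1* and *Rhpn2* (r = 0.96, 0.95 and 0.94). *Msx1* was most like *Gbx2*, *Bmpr1a* and *Tstd3* (r = 0.98, 0.98 and 0.97), *Id1* most like *Clcn4*, *Tfb1m* and *Lysmd2* (r = 0.985, 0.98 and 0.98), and *Smad7* most like *Pitpnc1*, *Olig3* and *Stk24* (r = 0.98, 0.97 and 0.97). These points share libraries and sorting within each stage, and r over 10 group means is a description.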

How the data were processed

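Gene expression was measured by RNA-seq in 30 PGC and 6 gonad libraries. Per the methods, reads were trimmed with Trim Galore, gonad reads were aligned with HISAT2 and quantified with StringTie, and PGC cDNA (Smart-seq2) reads were aligned to Mm39 with STAR and kept where unique. The authors deposited 1 gene table per library with TPM, FPKM (both normalized for length and depth) and coverage, a signal value that gives the mean read depth per base. Read counts were not used here, so the depth was taken as aligned bases, recovered from the ratio of coverage to FPKM. Gonad positions fit GRCm38 and not the build named in the methods, and no position from these tables is printed.

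The 10 members and all lists were chosen with earlier results of these data known. Rows were summed per gene ID, and for a symbol with several IDs the one with the highest mean TPM was taken. Genes with a mean of at least 1 TPM in 1 compared group were tested with limma 3.58.1 (R 4.3.3; lmFit, eBayes with trend, two-sided) on log2(TPM + 1) in the 6 libraries of each comparison, with Benjamini-Hochberg adjustment over all genes tested. A pseudocount of 1 understates the change of low genes. A call needed, in PGCs, a log2 difference beyond 1 in either direction with adjusted p < 0.01, and in gonads one of at least 1 with adjusted p < 0.05. The labels name biological replicates without saying whether dams differed, so p-values measure the spread between these pools. The same fit between the sexes is quoted for genes that are not members only. The scripts were tested on simulated data. All 10 members, 6 context genes (*Bmp2*, *Bmp4*, *Bmpr2*, *Smad1*, *Smad5*, *Stra8*), up to 4 called list genes with the lowest p per comparison and, for at most 5 members, the genes most alike over the PGC group means were named. *Gata3*, *Id4* and *Atoh8* in E13.5M PGCs, and *Hand1* between the sexes, fell outside that rule and were named after their values were seen. The same holds for *Dppa3*, *Kit*, *Ddx4*, *Dazl*, *Pecam1*, the single Y-linked genes and the meiotic genes whose values are given without a call. Results were recomputed with each library left out, on FPKM, with median-of-ratios scaling, with a smaller pseudocount (0.1), without the filter on low values, in 1 fit over all PGC groups, with a replicate block, and at unadjusted p. Strand use in counting is not given in the sources used here. Figures were drawn with matplotlib 3.10.9.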

Additional observations from a re-analysis of the deposited data

Results flagged for a closer look

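The IUHG difference of some members had opposite signs in different PGC groups, with every IUHG library on 1 side of the controls in the first group and on the other side in the second. These differences between groups were not tested. For *Id1*, the log2 difference was −0.74 in E13.5F and 1.69 in E13.5M PGCs, which lie 2.43 apart. For *Id3* the same values were −0.36 and 0.98, which lie 1.33 apart. Between male stages, *Id1* went from 1.69 at E13.5M to −0.79 at E16.5M, a change of −2.48. Between E12.5 and E13.5F, *Id1* went from 0.96 to −0.74, a change of −1.70, and *Id3* from 0.52 to −0.36, a change of −0.88. The comparisons at one stage share no libraries. The *Id3* value in E13.5F PGCs was −0.19 without IUHG replicate 3.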

How the results depend on the processing

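The median log2 difference of the members in E13.5F PGCs changed from 0.06 to −0.10 both on FPKM and on median-of-ratios scaling. The number of members past the thresholds, from which nothing is read, changed from 0 to 1 in E13.5F PGCs with 1 fit over all PGC groups and with unadjusted p, and from 0 to 1 in E16.5F PGCs with 1 fit. Of the pathway genes, the number called was 1 in gonads with unadjusted p (0 in the report). In E13.5F PGCs it was 5 with 1 fit, 5 with unadjusted p and, leaving out 1 library, 0 to 2, with 2 only without IUHG replicate 3. In E13.5M PGCs it was 1 on FPKM (2 in the report). In E16.5F PGCs it was 5 with 1 fit and 2 with unadjusted p. In E16.5M PGCs it was 0 (1 in the report) with a pseudocount of 0.1, without a filter, with 1 fit and on leaving out any 1 library (0 to 0). The cause was not tested.

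Replicate numbers did not pair the samples: no comparison had a correlation of same-numbered libraries over 0.1 in every pair. With the replicate block, the number of pathway genes called was 1 in E13.5F PGCs (0 without) and 0 in E16.5M PGCs (1 without), and no other count of calls moved by over 1.5 times.

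In the sex comparison, signs turned for 3 members. *Smad7* at E13.5 was −0.0857 on median-of-ratios scaling and −0.0127 without male control replicate 1 (range over libraries left out −0.0127 to 0.31). *Smad6* at E16.5 was −0.063 on that scaling and −0.20 without female control replicate 2 (range −0.20 to 0.48). *Zglp1* at E16.5 was 0.043 without male control replicate 1 (range −0.90 to 0.043). The median gene of the E16.5 sex comparison was −0.11 on TPM and −0.39 on median-of-ratios scaling.

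Of 60 single-member IUHG differences, 5 moved by more than the replicate spread on FPKM, 5 with the pseudocount of 0.1 and 2 on median-of-ratios scaling, and none moved that far under the other settings. With groups of 3 and no read counts used, differences of genes near 1 TPM were poorly resolved.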
